A study of Mus musculus with 8 samples.

Results

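The genes described here encode the protein subunits of the mitochondrial ribosome. They were taken by name, as every row of the expression table whose symbol starts with Mrpl or Mrps followed by a digit, with pseudogenes left out, which gave 77 of 12701 genes. RNA had been sequenced from alveolar macrophages, the resident macrophages of the airspaces, sorted by flow cytometry from lungs of C57BL/6 mice. In the d15 group (2 libraries) and the d35 group (3 libraries), the mice had received KP cells, which are cultured mouse lung cancer cells, by tail vein injection, and tumors had grown in the lung for the number of days in the name. In the naive group (3 libraries) the mice carried no tumor. All groups share the strain and the sorted cell type, and every tumor came from injected KP cells, so the tumors are a model of cells seeded from the blood. The labels allow KP cells or KP cells with a GFP marker and do not say which a library had. The protocol's harvest period ends before day 35, so the later time is uncertain. Whether each library is a separate animal is not labelled, so p-values here measure only how far these samples spread, and part of that spread may be technical.

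Each library rested on RNA from 20000 cells and on 27465745 to 39572173 reads recovered from the deposited values. Levels are given as scaled CPM, the authors' read counts relative to the scaled size of the library. All 20 alveolar macrophage markers examined were in the table, with a summed level of 33986 to 40595 scaled CPM in naive, 43153 and 47369 in d15 and 44852 to 59271 in d35 libraries. Single markers went both ways. At d35 4 rose, Ctsk, Cd68, Car4 and Ear2, and 2 fell, Cidec and Siglecf (limma adjusted p below 0.05), and at d15 3 rose and 1 fell. Of all genes tested, 9.86% rose and 6.32% fell at d35, and 2.37% rose and 2.0% fell at d15. Summed levels of markers of other cells differed between groups too. The 13 endothelial markers, all listed above 0, summed to 308 to 417 scaled CPM in naive, 209 and 264 in d15 and 189 to 243 in d35 libraries, and 9 of them fell at d35 (limma adjusted p below 0.05). The 18 listed monocyte and interstitial macrophage markers, of 19 examined, summed to 944 to 1254 scaled CPM in naive, 1015 and 1067 in d15 and 1348 to 2039 in d35 libraries, and 9 of 17 tested rose at d35 while 1 fell. The 9 fibroblast markers summed to 732 to 925 scaled CPM in naive, 722 and 788 in d15 and 981 to 1722 in d35 libraries. Of 7 tested, though, only Fn1 rose at d35, Mfap4 and Col3a1 fell, and 6 had a log2 fold change below 0. The 20 genes of dissociation stress summed to 5884 to 10567 in naive, 10323 and 11817 in d15 and 4523 to 9608 in d35 libraries. The 4 listed B cell markers, of 6 examined, summed to 10.4 to 15.5 scaled CPM in naive, 5.22 and 5.64 in d15 and 3.78 to 6.93 in d35 libraries. The 13 listed epithelial and tumor markers, of 14 examined, summed to 1448 to 1451 scaled CPM in naive, 1251 and 1364 in d15 and 1238 to 1351 in d35 libraries, with 5 that rose at d35, Krt7, Krt8, Krt18, Cldn4 and Muc1, and 1 that fell. The 20 cell cycle genes summed to 1052 to 1132 scaled CPM in naive, 1067 and 1307 in d15 and 772 to 965 in d35 libraries, with 6 that fell and 1 that rose at d35. The part of these shifts in the results below was not tested. In such bulk samples, fewer cells of a type and less RNA per cell cannot be told apart.

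Mitochondria keep a small genome of their own, and a dedicated ribosome in the mitochondrial matrix translates the few messages it encodes, all of them subunits of the oxidative phosphorylation complexes. The ribosome's RNAs are made from mitochondrial DNA, while all of its proteins, the MRPs, are encoded in the nucleus, made in the cytosol and imported. Many MRPs descend from bacterial ribosomal proteins, and others were added during the evolution of mitochondria. The large subunit joins amino acids and releases the new chain through an exit tunnel at the inner membrane, and the small subunit reads the message.

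The MRP genes were all expressed, and their summed level was higher in tumor-bearing mice than in naive mice at both times. The 77 genes together held 1928, 2020 and 2113 scaled CPM in naive libraries, 2315 and 2433 in d15 libraries and 2326, 2225 and 2590 in d35 libraries. Every library from tumor-bearing mice lay above every naive library, and the d15 values lay within the range of the d35 values. The sum averaged 2374 ± 83.4 scaled CPM at d15 (SD, n = 2) and 2380 ± 188 at d35 (SD, n = 3), against 2020 ± 92.5 in naive (SD, n = 3). Within the naive group naive 1 was the low library, with the lowest value of all 8 libraries for 46 genes, and d35 3 was the high one, with the highest value for 48 genes.

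**Figure D1:**
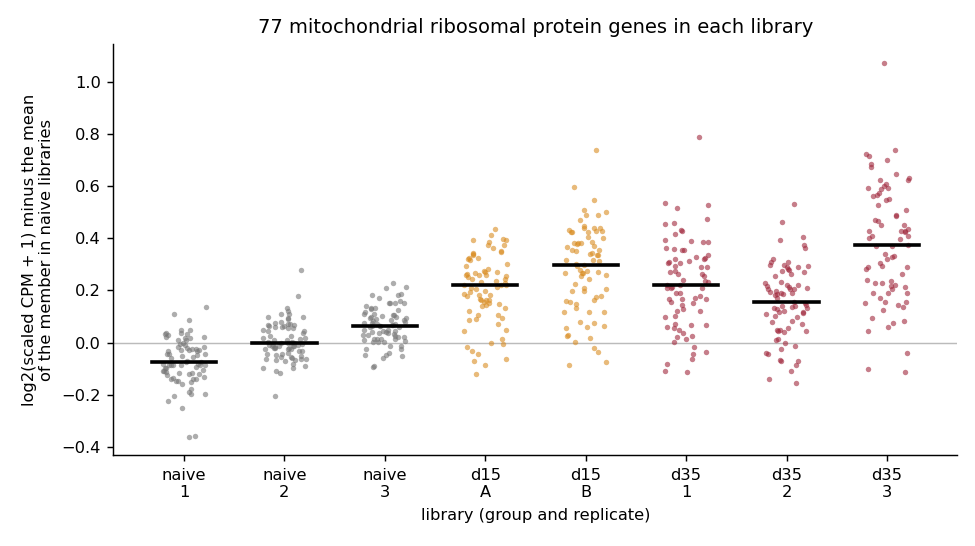
Each point is one of the 77 MRP genes in one library, as log2(scaled CPM + 1) minus the gene's mean in the naive libraries, and black bars are medians over the genes. The median lay between -0.07 and 0.07 in the naive libraries, at 0.22 and 0.30 at d15, and at 0.22, 0.16 and 0.37 at d35.

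Levels differed widely between the genes when set per kilobase of transcript. The mean over all libraries lay between 2.82 and 99.5 scaled CPM per kb, with a median of 17.4. The highest were Mrpl33, a short protein of the large subunit, at 99.5, Mrps15, a small subunit protein that binds the ribosomal RNA, at 84.8, Mrpl4 at 59.4 and Mrpl36, which in human cells joins the large subunit late in assembly, at 58.8 scaled CPM per kb. The lowest were Mrpl47 at 2.82, Mrps36 at 3.53 and Mrps25 at 3.69 scaled CPM per kb. Mrps36 was named as a ribosomal protein but is now known as a part of the 2-oxoglutarate dehydrogenase complex, and it is counted in neither subunit here. These levels rest on the longest annotated transcript, which makes them low for genes with a long alternative end.

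The genes Mrps25, Mrpl32 and Mrpl1 passed the test at both times. Here and below a gene is said to rise or fall where limma gave a Benjamini-Hochberg adjusted p below 0.05 over the 11273 genes tested, with fold changes on the log2(scaled CPM + 1) scale. Mrps25, a small subunit protein found in mitochondria and not in bacteria, had 18.5, 17.9 and 17.7 scaled CPM in naive, 24.0 and 24.5 in d15 and 24.4, 25.2 and 27.2 in d35 libraries. No tumor-bearing library overlapped a naive one, and the spread within each group was small against the gap. It rose by 0.48 ± 0.0890 at d35 (log2 fold change ± SE, limma adjusted p = 0.00773) and by 0.40 ± 0.0995 at d15 (limma adjusted p = 0.0478). Mrps25 lies on chromosome 6 (GRCm38 with GENCODE vM21, 92169525 to 92184033, minus strand, 4 exons), and its exons overlap those of Nr2c2, a nuclear receptor gene on the other strand. Nr2c2 had the opposite sign, at -0.34 at d35 (limma adjusted p = 0.101) and -0.20 at d15 (limma adjusted p = 0.433), neither past the threshold, and whether the authors counted by strand is not given.

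Mrpl32, a zinc-binding large subunit protein whose maturation by a membrane protease precedes ribosome assembly, had 26.5, 27.0 and 27.4 scaled CPM in naive, 35.8 and 38.2 in d15 and 35.6, 32.6 and 36.8 in d35 libraries. The groups again stood apart from naive, and d15 and d35 overlapped. It rose by 0.44 ± 0.0932 at d15 (log2 fold change ± SE, limma adjusted p = 0.0315), the smallest adjusted p of the 77 genes there, and by 0.36 ± 0.0834 at d35 (limma adjusted p = 0.0186). It lies on chromosome 13 (14608184 to 14613165, minus strand, 3 exons). Mrpl1, the counterpart of the bacterial L1 protein beside the site where spent transfer RNA leaves, had 31.5, 34.3 and 33.9 scaled CPM in naive, 42.3 and 45.0 in d15 and 41.7, 38.0 and 40.8 in d35 libraries. All of its tumor-bearing libraries were above all naive libraries. It rose by 0.38 ± 0.0908 at d15 (limma adjusted p = 0.0439) and by 0.27 ± 0.0812 at d35 (limma adjusted p = 0.0489). It lies on chromosome 5 (96209493 to 96266727, plus strand, 10 exons).

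The promoters of these genes, and of Mrpl33, the gene with the highest level per kb, are shown because nuclear factors that many genes of mitochondrial proteins share, NRF1, ETS-family factors and YY1, are known to act close to the start site. Each runs from 250 bases before to 50 bases after the gene's RefSeq start on the gene's own strand, with the build GRCm38.p6. For Mrpl1 and Mrpl33 the window lies inside the GENCODE gene, whose start is further upstream, so bases before that start are not in it. Capitals mark a match to one of the 3 motifs searched on both strands, which were GCGCA, any base, GCGC for NRF1, CCGGAAG for ETS and ATGGCGGC for YY1.
Mrps25, chr6:92183974-92184273, minus strand: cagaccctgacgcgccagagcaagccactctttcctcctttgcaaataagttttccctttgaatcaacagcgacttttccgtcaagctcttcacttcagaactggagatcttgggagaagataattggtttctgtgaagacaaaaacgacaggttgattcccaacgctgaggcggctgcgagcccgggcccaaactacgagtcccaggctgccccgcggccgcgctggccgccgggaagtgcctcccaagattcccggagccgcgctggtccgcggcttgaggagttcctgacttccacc
Mrpl32, chr13:14612988-14613287, minus strand: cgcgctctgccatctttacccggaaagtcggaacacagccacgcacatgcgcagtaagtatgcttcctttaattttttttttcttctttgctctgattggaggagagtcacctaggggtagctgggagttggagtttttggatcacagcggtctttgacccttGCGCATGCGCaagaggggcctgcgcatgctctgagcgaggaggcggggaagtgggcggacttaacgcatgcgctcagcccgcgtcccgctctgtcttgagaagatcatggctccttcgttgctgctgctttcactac
Mrpl1, chr5:96209865-96210164, plus strand: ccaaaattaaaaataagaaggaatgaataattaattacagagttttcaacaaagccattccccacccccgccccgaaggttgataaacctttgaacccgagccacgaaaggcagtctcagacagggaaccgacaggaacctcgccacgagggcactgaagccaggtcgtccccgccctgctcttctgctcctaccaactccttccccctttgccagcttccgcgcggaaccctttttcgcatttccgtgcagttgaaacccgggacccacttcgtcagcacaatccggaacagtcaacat
Mrpl33, chr5:31613701-31614000, plus strand: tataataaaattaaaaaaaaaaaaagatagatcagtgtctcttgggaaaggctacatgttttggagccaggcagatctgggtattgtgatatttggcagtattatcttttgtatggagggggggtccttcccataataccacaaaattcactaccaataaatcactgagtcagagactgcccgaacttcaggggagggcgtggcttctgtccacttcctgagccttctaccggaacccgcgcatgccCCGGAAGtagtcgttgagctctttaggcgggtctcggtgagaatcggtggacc

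The Mrpl32 window held 1 NRF1 match, the Mrpl33 window held 1 ETS match, and the windows of Mrps25 and Mrpl1 held none of these letters. RefSeq promoters were found for 68 of the 77 genes. The NRF1 motif was in 13 of the 68 (19.1%), against 12.2% of tested genes and 5.19% of the 27025 promoters in the table. The ETS motif was in 25 (36.8%), against 21.3% of tested genes and 9.93% of all promoters. The YY1 motif was in 11 (16.2%), against 5.97% of tested genes and 2.6% of all promoters. Among the genes that rose at d35, 6 of 22 with a promoter held the NRF1 motif, against 7 of 46 of the others, 8 of 22 held the ETS motif, against 17 of 46, and 2 of 22 held the YY1 motif, against 9 of 46. These splits were not tested. A match is a description of the letters, and binding was not measured.

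At d35, 23 of the 77 MRP genes rose and none fell. That is 29.9% of them, against 9.86% of all genes tested that rose and 6.32% that fell. The median log2 fold change was 0.24, or 1.18-fold, against -0.002 over all genes, and 72 genes lay above 0. In 48 genes (62.3%) every d35 library was above every naive library, against 20.7% of all genes. An unadjusted p below 0.05 was reached by 43 genes, all of them higher at d35. The share of all genes at that unadjusted level was not counted, so this number shows nothing particular to the MRP genes.

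The largest rise was in Mrpl52, a large subunit protein specific to mitochondria. It had 14.2, 10.3 and 17.5 scaled CPM in d35 libraries, against 7.21, 7.72 and 8.50 in naive libraries, or 0.74 ± 0.170 as log2 fold change (SE, limma adjusted p = 0.0181). All d35 values lay above the naive values, and they were spread widely among themselves. Mrpl34, the counterpart of a small bacterial protein of the large subunit, had 19.3, 17.2 and 21.8 scaled CPM in d35 libraries, against 13.2, 12.4 and 13.5 in naive libraries, or 0.54 ± 0.114 as log2 fold change (limma adjusted p = 0.0138). Mrpl54, another protein found in mitochondria and not in bacteria, had 16.8, 15.5 and 17.8 scaled CPM in d35 libraries, against 10.0, 12.0 and 12.5 in naive libraries, or 0.51 ± 0.116 as log2 fold change (limma adjusted p = 0.0181). In both genes the lowest d35 library was above the highest naive library.

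Around the large subunit, rises at d35 were counted in the stalk, the exit tunnel rim and the central protuberance, beside 29.9% of all MRP genes and 9.86% of all genes tested. With 3 to 9 genes each, these counts show nothing particular to a site. Mrpl12, the stalk protein that recruits translation factors, had 24.5, 23.4 and 27.6 scaled CPM in d35 libraries, against 18.4, 21.4 and 18.6 in naive libraries (log2 fold change 0.35 ± 0.104, limma adjusted p = 0.0423). It was the 1 of 3 stalk genes that rose, since Mrpl10 and Mrpl11 did not pass the test. At the rim of the exit tunnel, 3 of 9 genes rose, Mrpl32, Mrpl45 and Mrpl17. Mrpl45, which faces the inner membrane at the tunnel exit, had 40.2, 31.5 and 40.3 scaled CPM in d35 libraries, against 25.3, 28.8 and 28.9 in naive libraries (log2 fold change 0.41 ± 0.109, limma adjusted p = 0.0298). In the central protuberance, the crown over the subunit interface, 3 of 8 genes rose, Mrpl18, Mrpl40 and Mrpl27. Mrpl18, a protein of that crown whose bacterial counterpart binds the smallest ribosomal RNA, had 41.2, 36.6 and 45.7 scaled CPM in d35 libraries, against 27.6, 28.4 and 33.7 in naive libraries (log2 fold change 0.45 ± 0.106, limma adjusted p = 0.0201). Exons of Mrpl18 overlap those of Tcp1 on the other strand, and Tcp1 itself stood at 0.03 (limma adjusted p = 0.822).

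In the small subunit, 5 of 26 genes rose at d35, Mrps25, Mrps11, Mrps21, Mrps24 and Mrps12, against 17 of 50 in the large subunit. Over all MRP genes 29.9% rose, and over all genes tested 9.86%. The median log2 fold change was 0.24 in each subunit. Mrps11, a protein of the small subunit's platform, had 17.1, 15.8 and 19.3 scaled CPM in d35 libraries, against 11.9, 13.5 and 12.0 in naive libraries (log2 fold change 0.44 ± 0.117, limma adjusted p = 0.0302). The groups did not overlap. Its exons overlap those of another MRP gene on the other strand, Mrpl46, so reads of the pair may be mixed, and Mrpl46 was not called (log2 fold change 0.28, limma adjusted p = 0.215). By origin, 16 of 46 genes with a bacterial counterpart and 6 of 30 specific to mitochondria rose. The splits by subunit and by origin were not tested. Mrps36 of the 2-oxoglutarate dehydrogenase complex rose too, with 2.79, 3.06 and 3.33 scaled CPM in d35 libraries, against 2.03, 1.77 and 1.64 in naive libraries (log2 fold change 0.53 ± 0.159, limma adjusted p = 0.0462).

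**Figure D2:**
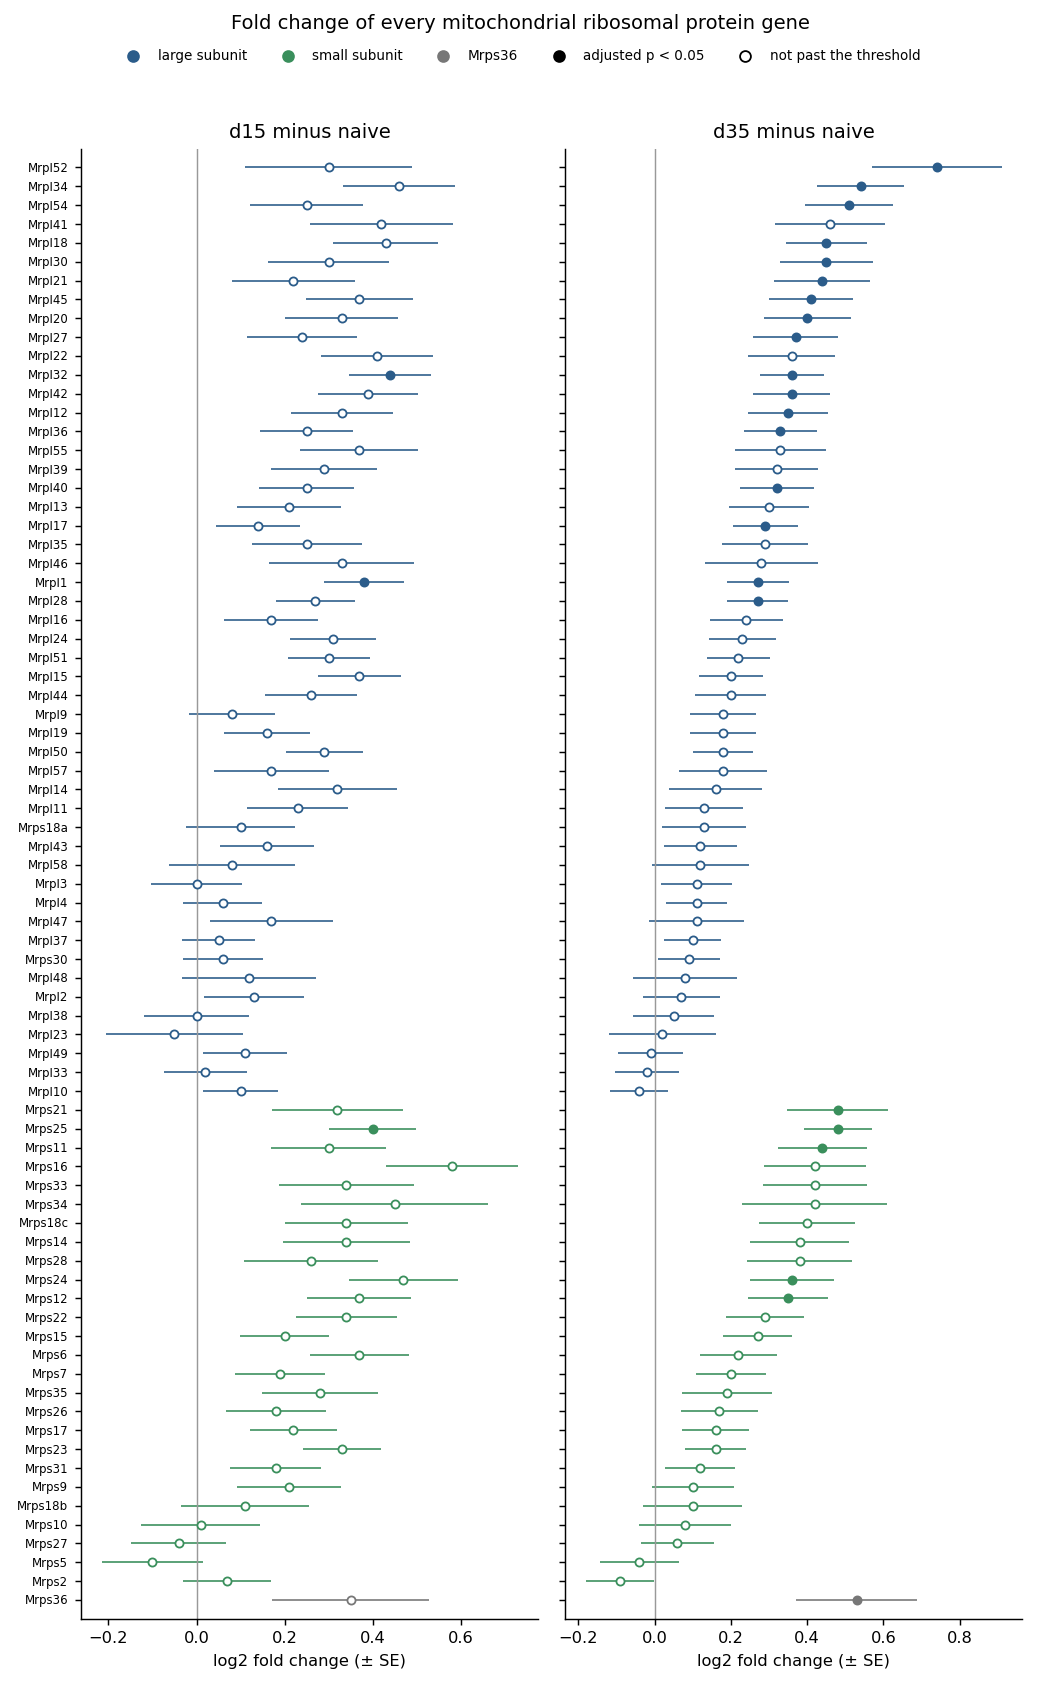
Log2 fold change with its standard error for each of the 77 MRP genes, d15 against naive on the left and d35 against naive on the right, with filled points for an adjusted p below 0.05. Filled points number 3 at d15 and 23 at d35, all right of 0, and both subunits spread over the same range.

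The rest of the d35 calls were Mrpl30, Mrpl20, Mrpl42, Mrpl21, Mrpl36 and Mrpl28, all of the large subunit, with log2 fold changes between 0.27 and 0.45. Exons of Mrpl12, Mrpl21, Mrpl27 and Mrpl36 overlap genes on the other strand and those of Mrps24 overlap Urgcp on the same strand, so these values are uncertain in that respect. Mrps25 was the only one of the 23 called in each of the 23 alternative settings tried, with log2 fold changes from 0.37 to 0.62. The number called hung on single libraries. It was 2, 1 and 8 without naive 1, 2 and 3, 5 without d35 1, 2 without d35 3, and 26 without d35 2. Without d15 A and B, which enter only through the shared spread, 9 and 8 of the 23 calls were kept. The calls over all genes moved as well. Of all genes 1112 rose with every library in, and 535, 457 and 656 without naive 1, 2 and 3. Without d35 1, 2 and 3 the number was 647, 1346 and 632, and without d15 A and B it was 863 and 856. The median stayed between 0.21 and 0.28 when any 1 library was left out. Under plain CPM without the authors' scaling, 5 genes rose, and the calls over all genes turned from 1112 higher and 712 lower to 663 higher and 1644 lower, with a shift of the all-gene median to -0.107. Relative to that shift, the MRP median of 0.14 was higher than the typical gene.

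Some MRP genes did not follow. Mrpl33 had 44.0, 45.2 and 52.3 scaled CPM in d35 libraries, against 46.1, 47.8 and 48.7 in naive libraries (log2 fold change -0.02 ± 0.0849, limma adjusted p = 0.919). Mrps2, a small subunit protein with a bacterial counterpart, had 37.9, 35.4 and 36.3 scaled CPM in d35 libraries, against 35.2, 42.2 and 40.1 in naive libraries, the lowest log2 fold change of the 77 at -0.09 ± 0.0898 (limma adjusted p = 0.502). Mrps5, a small subunit protein near the site where the message enters, stood at -0.04 ± 0.103 (limma adjusted p = 0.803). In all 3 the groups overlapped. The highly expressed Mrps15 had 83.9, 77.2 and 97.7 scaled CPM in d35 libraries, against 67.0, 71.7 and 74.9 in naive libraries (limma adjusted p = 0.0679). Mrpl36, high per kb as well, rose with 55.3, 55.0 and 69.6 scaled CPM in d35 libraries, against 48.0, 47.0 and 46.8 in naive libraries (log2 fold change 0.33, limma adjusted p = 0.0414).

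The 3 paralogs of one bacterial protein, S18, differed in level and in which subunit holds them. Mrps18a, built into the large subunit, had 42.5, 39.9 and 53.5 scaled CPM in d35 libraries, against 38.6, 40.4 and 44.4 in naive libraries (log2 fold change 0.13, limma adjusted p = 0.451). Mrps18b, in the small subunit, had 9.35, 7.62 and 9.43 scaled CPM in d35 libraries, against 7.38, 8.31 and 8.78 in naive libraries (log2 fold change 0.10, limma adjusted p = 0.648). Mrps18c, the small subunit form closest in position to the bacterial protein, had 17.4, 15.5 and 20.0 scaled CPM in d35 libraries, against 11.7, 13.9 and 13.8 in naive libraries (log2 fold change 0.40, limma adjusted p = 0.0545). Mrps18c alone had groups that did not overlap, and none of the 3 passed the test. Among the members at the edge of the ribosome, Mrpl58, a peptidyl-tRNA hydrolase that frees stalled ribosomes, stood at 0.12 (limma adjusted p = 0.561), Mrps30, a large subunit protein despite its name, at 0.09 (limma adjusted p = 0.478), and Mrpl41 at 0.46 (limma adjusted p = 0.0521).

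**Figure D3:**
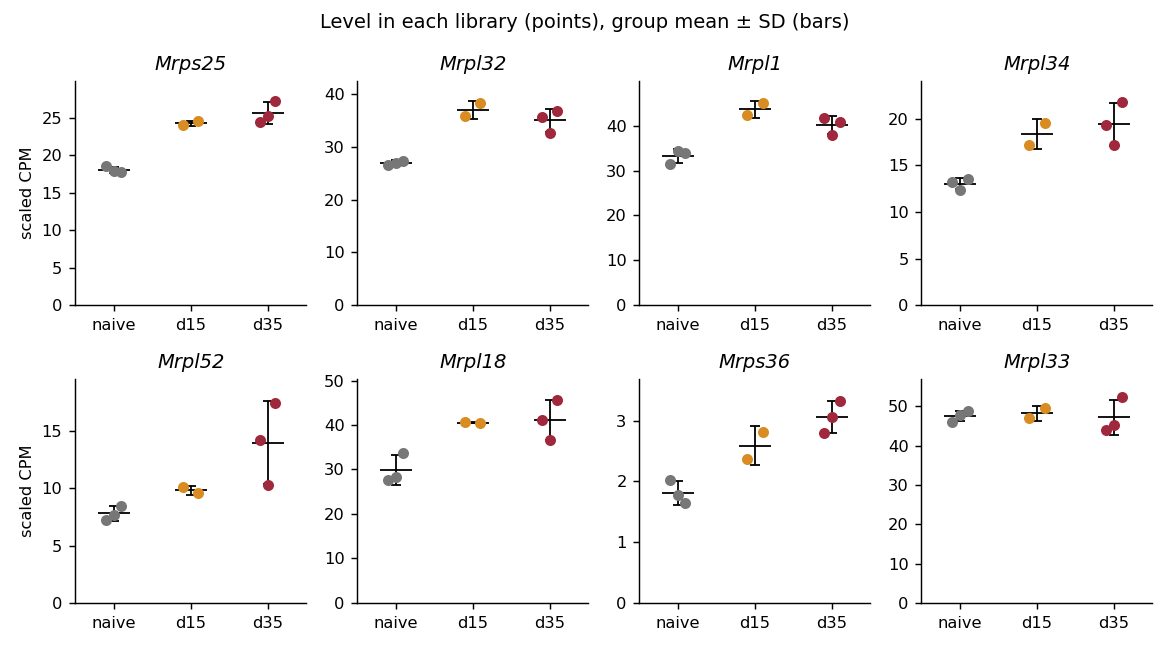
Level of 8 genes in each library as scaled CPM, with points for libraries and bars for the group mean ± SD (n = 3 naive, 2 d15, 3 d35). Tumor-bearing libraries lie above naive ones in 7 of the genes, while Mrpl33 shows no gap.

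At d15, Mrpl32, Mrpl1 and Mrps25 rose and none fell, 3.9% of the MRP genes against 2.37% of all genes tested that rose and 2.0% that fell. A share so near that of all genes is no result about the group. The median log2 fold change was 0.25, or 1.19-fold, against 0.012 over all genes. In 55 genes (71.4%) both d15 libraries were above all naive libraries, against 25.9% of all genes. There were 32 genes with an unadjusted p below 0.05, again without a share of all genes to set beside them. None of the 3 was called when any 1 naive or d15 library was left out. The count was 2 without d35 1, 6 without d35 2 and 12 without d35 3, libraries that enter only through the shared spread. Of all genes 267 rose with every library in, and 272, 391 and 619 without d35 1, 2 and 3. Without naive 1, 2 and 3, 120, 40 and 58 of all genes rose. The largest log2 fold change was that of Mrps16, with 16.4 and 20.8 scaled CPM in d15 libraries, against 10.7, 12.9 and 12.7 in naive libraries (0.58 ± 0.149, limma adjusted p = 0.0533). Mrps24 had 34.8 and 41.5 scaled CPM in d15 libraries, against 25.6, 27.0 and 28.9 in naive libraries (log2 fold change 0.47 ± 0.123, limma adjusted p = 0.055). The lowest were Mrps5 at -0.10 (limma adjusted p = 0.613) and Mrpl23 at -0.05 (limma adjusted p = 0.863). In the authors' deposited table for d15 against naive, 0 of the 77 genes had an FDR below 0.05, against 3.61% of the 10778 genes in it, while 71 had a log2 fold change above 0.

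Between d35 and d15, none of the 77 genes passed the test in either direction with limma, edgeR, DESeq2 or voom, and 1 did when d35 2 was left out. Over all genes, 4.59% were higher and 2.8% lower at d35. The median log2 fold change was 0.02, and 1 gene, Mrpl52, had an unadjusted p below 0.05, with 14.2, 10.3 and 17.5 scaled CPM in d35 libraries, against 10.1 and 9.57 in d15 libraries (0.44 ± 0.190, limma adjusted p = 0.202). Mrpl54 came next, at 0.26 ± 0.129 (limma adjusted p = 0.279). Mrps23 and Mrpl15 were lower at d35, each at -0.17 (limma adjusted p = 0.312 and 0.326), as was Mrpl14, at -0.17 (limma adjusted p = 0.527). The d15 and d35 comparisons against naive share the naive libraries, so their likeness is not independent.

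The calls moved with transcript length. MRP transcripts are short, with a median of 1316 bases against 3138 over all tested genes, and 50 of the 77 (64.9%) lay in the shortest 20% of all genes, up to 1809 bases. Across all genes, the median log2 fold change at d35 was 0.196 in the shortest 20% and -0.162 in the longest 20%, and at d15 it was 0.188 and -0.146. The same was seen in single libraries. The correlation across genes of a library's deviation with log2 length was 0.217 to 0.336 in the naive libraries, -0.113 and -0.175 in d15 and -0.336 to 0.00908 in d35 libraries.

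**Figure D4:**
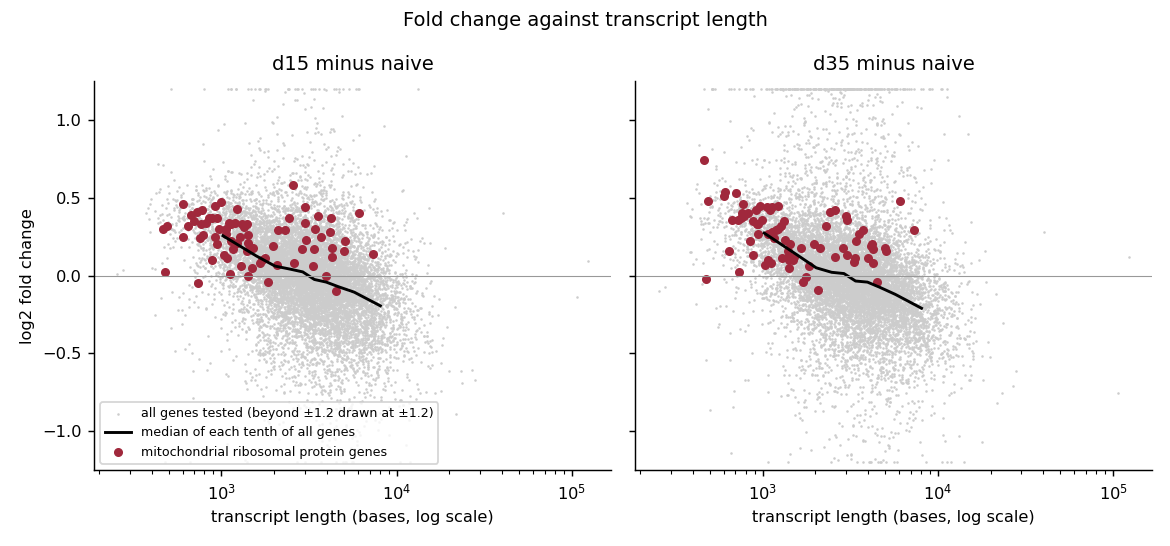
Log2 fold change against transcript length in bases on a log scale, d15 against naive on the left and d35 against naive on the right. Grey points are all tested genes with a length, the black line joins medians over 10 length classes of equal size, and red points are MRP genes. The line falls from short to long genes in both panels.

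When the length trend was removed in each library, the MRP genes lay closer to the other genes. At d35, 3 rose, Mrps25, Mrpl17 and Mrpl32, and 1 fell, with 5.82% of all genes higher and 5.16% lower. The median log2 fold change was 0.07. The gene that fell was Mrpl33, the second shortest of the 77 transcripts, at -0.46 (limma adjusted p = 0.00761), although its scaled CPM did not differ beyond the spread. At d15, 4 rose, Mrps25, Mrpl32, Mrpl1 and Mrpl15, against 1.83% of all genes higher and 1.17% lower, with a median of 0.09. The transcripts longer than 1809 bases moved little with the correction. Their 27 genes had a median of 0.18 at d35 before it and 0.20 after it, with 5 and 3 rises. The 50 short ones had a median of 0.29 before it and 0.02 after it, with 18 and 0 rises. The share of all genes that rose in each length class was not counted. The split rests on the longest annotated transcript, which for some genes is far above the median one. For Mrps17 it is 5061 against 868 bases, and its d35 value was 0.22 corrected by the longest and -0.11 by the median transcript. Among the MRP genes the largest corrected rise at d35 was that of Mrps25, 0.59 (limma adjusted p = 0.00436). Whether length itself, or something that short transcripts share, moves with the group was not tested.

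Other genes of the pathway are set beside 9.86% of all genes tested that rose at d35 and 2.37% at d15. In lists of 5 to 28 genes, the small counts below show nothing particular to the pathway. Of 5 tested mitoribosome subunits with other symbols, 1 rose, Aurkaip1, with 69.7, 65.0 and 79.9 scaled CPM in d35 libraries, against 50.7, 58.7 and 61.7 in naive libraries (log2 fold change 0.32, limma adjusted p = 0.0482), and none did at d15. After removal of the length trend Aurkaip1 was no longer called, at 0.07 (limma adjusted p = 0.511). None of 28 assembly and rRNA modification genes and none of 14 translation factor genes passed the test at d35, with medians of 0.06 and 0.09, and none did at d15, with medians of 0.07 and 0.06. Of 22 genes of mitochondrial transcription and RNA handling, 1 rose at d35, Hsd17b10, a subunit of mitochondrial RNase P, with 32.8, 30.5 and 35.6 scaled CPM in d35 libraries, against 25.2, 26.5 and 27.0 in naive libraries (log2 fold change 0.32, limma adjusted p = 0.0359), and none did at d15. After removal of the length trend Hsd17b10 was no longer called, at 0.03 (limma adjusted p = 0.807), and Elac2, which trims the far end of mitochondrial transfer RNAs, was lower at -0.34 (limma adjusted p = 0.0363).

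The nuclear genes for oxidative phosphorylation encode the partners of the proteins that the mitoribosome makes. Of 82 tested, chosen by symbol and including assembly factors of complex I, 52 rose at d35 (median log2 fold change 0.40), against 9.86% of all genes, and 8 at d15 (median 0.37), against 2.37% of all genes. After the length trend was removed 3 of 81 rose and 1 fell at d35 (median 0.08), against 5.82% of all genes higher and 5.16% lower. Beside the same shares of all genes, of 74 tested genes of the cytosolic ribosome 20 rose at d35 (median 0.35) and 11 at d15 (median 0.45), and after the correction 1 rose at d35 (median 0.06). That list was chosen by symbol too, and it includes Rps19bp1, named as a binding protein of Rps19, and the paralogs Rpl7l1 and Rpl22l1. The 7 mitochondrially encoded messages in the expression table are only a part of those that the mitoribosome translates. These 7 did not pass the test at either time. Their median was 0.00 at d35 and 0.29 at d15, and -0.24 at d35 and 0.09 at d15 after the correction, when 0 of the 7 lay above 0 at d35.

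**Figure D5:**
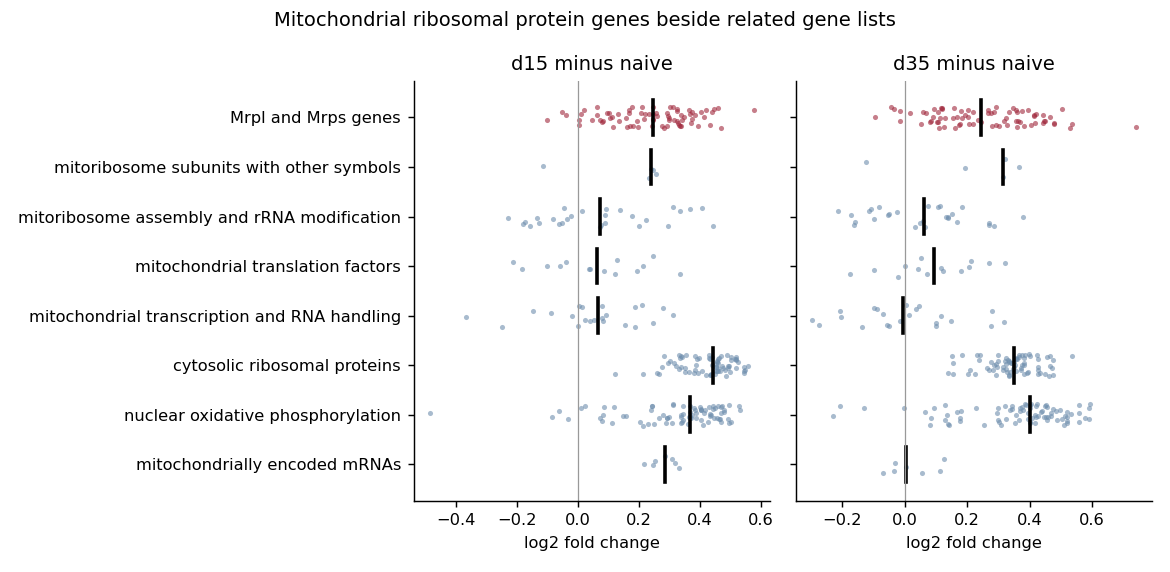
Log2 fold change of each tested gene of 8 lists, d15 against naive on the left and d35 against naive on the right, with black bars for list medians. The MRP median is 0.25 at d15 and 0.24 at d35, below those of the cytosolic ribosomal proteins and the nuclear oxidative phosphorylation genes and above those of the assembly and translation factor lists.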

How the data were processed

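The authors deposited a table of 12701 genes as a scaled signal. Its values were read as (reads + 0.5) over library size, scaled as CPM, and 100% came out as whole reads within 0.001, with at least 41 reads for every gene over all libraries, so the table had been filtered. Per the submitters' processing notes, STAR 2.5, mm10 and edgeR were used. A second deposited table compares d15 with naive by log2 fold change, a test score and p-value, per the file headers. Columns of d15 carry other numbers than the titles, so they were assigned to the group as replicates A and B. The filter kept 11273 genes that reached 1 scaled CPM in 2 or more libraries. Their log2(value + 1) went through limma 3.58.1 (R 4.3.3) with an intensity trend, over all 8 libraries with group as the only term (residual df 5, prior df 5.72), which was tested on simulated data. Recovered reads went through edgeR 4.0.16, DESeq2 1.42.0 and voom as alternatives. The length correction removed a loess trend (span 0.5) on log2 length of the longest GENCODE vM21 transcript from each library, and the version with median lengths was chosen after seeing the data. Genes are named by the smallest adjusted p, the largest changes, the highest and lowest levels per kb, the S18 paralogs and 6 members with a role outside or at the edge of the ribosome, and other names were chosen after their values were seen. Members and lists were chosen with earlier results of these data known.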

Additional observations from a re-analysis of the deposited data

How the results depend on the processing

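The direction of the median held under every alternative tried against naive, while the number of MRP genes called did not. Of all genes, 267 rose at d15 with the fit of the text, 634 with only the 2 groups in the fit and 686 with DESeq2. A filter of 5 gave 321, voom 173, plain CPM 154 and quantile normalization 190. The number of MRP genes that rose at d15, 3 in the text, was 11 with only the 2 groups, 12 with DESeq2 and 6 with a filter of 5. It was 1 each with voom, plain CPM and quantile normalization. It ranged from 0 to 12 when any 1 library was left out. Of all genes, 1112 rose at d35 with the fit of the text, 853 with only the 2 groups, 1355 with DESeq2, 1084 with edgeR and 1012 with voom. Quantile normalization gave 896, plain CPM 663, and the length corrections 653 and 652. DESeq2 called 29 MRP genes at d35, edgeR 22 and voom 19. The number of MRP genes that rose, 23 in the text, was 8 with only the 2 groups, 12 with quantile normalization and 5 with plain CPM. It was 3 with the length correction and 5 with that by median transcript length, and it ranged from 1 to 26 when any 1 library was left out. Between d35 and d15 it ranged from 0 to 1. The number that fell at d35 was 1 with either length correction. The median log2 fold change was 0.09 and 0.10 at d15 and 0.07 and 0.08 at d35 with the length corrections by longest and by median transcript, and 0.14 at d35 with plain CPM. The cause of these shifts was not tested.

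With the replicate block, 10 MRP genes rose at d35, and 881 of all genes did. With the block and the length correction, 2 MRP genes rose, 1 fell and their median was 0.07, while 428 of all genes rose and 275 fell. Same-numbered naive and d35 libraries had correlations of deviations of -0.00708, -0.0456 and 0.147, and other-numbered ones lay between -0.1 and 0.103. With so few libraries per group, these values cannot settle whether same-numbered samples were paired. Not every library correlated best with its own number. The d15 columns carry no usable number.

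Of the genes called at d35, Mrpl42 changed sign, to -0.02 with the length correction, with and without the block. Some named genes that were not called changed sign too. Mrpl23 at d15 was 0.007 with quantile normalization, and Mrpl58 at d15 was -0.003 without d15 B and -0.033 without naive 1, in a range up to 0.192 when any 1 library was left out. With the length corrections by longest and by median transcript, Mrps18a was -0.138 and -0.118 at d15 and -0.184 and -0.165 at d35, and Mrps18b was -0.089 and -0.072 at d15 and -0.169 and -0.151 at d35. With the block and the length correction they were -0.184 for Mrps18a and -0.169 for Mrps18b. With plain CPM at d35, Mrps18b was -0.006 and Mrps30 was -0.020. Mrps5 at d35 was 0.024 with the correction by median transcript and 0.022 without naive 3, in a range down to -0.117 when any 1 library was left out.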

Other observations

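Many MRP genes sit close to another gene that starts in the opposite direction. A start of such a neighbour lay within 1000 bases upstream for 18 of the 77 genes (23.4%), against 10.8% of the 11208 tested protein-coding genes. Pairs that overlap at their starts, such as Mrps11 and Mrpl46, were not counted. Of these neighbours, 17 were tested. None passed the test at d15, and at d35 1 rose and 0 fell, with a median log2 fold change of 0.12 at each time. The one that rose was Psma2, a subunit of the proteasome core, whose start lies 75 bases from that of Mrpl32, so that the Mrpl32 promoter printed above runs past it. Psma2 had 158, 148 and 169 scaled CPM in d35 libraries, against 110, 125 and 134 in naive libraries (log2 fold change 0.36, limma adjusted p = 0.020).

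Exons of 27 of the 77 genes overlap a gene on the other strand and those of 7 overlap a gene on the same strand in GENCODE vM21. Whether reads there were shared between the genes was not tested.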
